A study of Mus musculus with 48 samples.

Results

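The 10 muscle actin and smooth muscle contractile genes described here are the actins Acta2, Acta1, Actg2 and Actc1, the actin-binding regulators Tagln, Cnn1 and Cald1, the myosin regulatory light chain Myl9 and the tropomyosins Tpm1 and Tpm2. They are 10 of the 48321 rows of a table of transcript levels from mouse embryonic stem cells. The genes were chosen by their values in these same libraries, as contractile genes that were higher in both Mll3/4 mutant lines and for the most part highest in the catalytically deficient line, with no numerical threshold. Their levels are therefore given as a description, with no p-value. Nothing is read from the fact that they were higher.

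RNA-seq was made from 3 lines of R1 cells, a male mouse embryonic stem cell line of strain 129SV. The wild-type line (WT) was unedited, the dKO line had Mll3 and Mll4 (genes Kmt2c and Kmt2d) knocked out, and the dCD line carried catalytically deficient forms of both. Mll3 and Mll4 are the methyltransferases that place a single methyl group on lysine 4 of histone H3 at enhancers. All 3 lines were grown in serum-free 2i medium with LIF, which contains inhibitors of MEK and GSK3, on dishes coated with polyL-ornithine and laminin, and were moved onto fibronectin before collection. Polyadenylated RNA was sequenced in 3 libraries per line. Each genotype is represented by 1 line, and no label says that its replicates were grown as separate cultures. The p-values below thus reflect the scatter of these libraries alone, possibly technical, and clone and genotype cannot be told apart.

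Levels are in TPM, a transcript abundance that is scaled for gene length and library total. The reads behind them were recovered from the table and came to between 21090624 and 56249770 per library. Kmt2c measured 21.1 ± 1.22 TPM in WT and 7.66 ± 0.292 TPM in dKO (SD, n = 3) and 25.26 to 28.56 TPM in dCD, and Kmt2d measured 66.4 ± 1.08, 82.9 ± 2.21 and 63.2 ± 7.44 TPM. By limma, Kmt2c fell in dKO (log2 fold change -1.35, adjusted p = 8.37e-09). The level of Kmt2d in dKO was slightly above that of WT, by 0.32 on the log2 scale (limma adjusted p = 0.00194). Since no label says which stretch of either gene was edited, reads from elsewhere in the gene check nothing. The 12 pluripotency markers examined, among them Pou5f1, Sox2 and Nanog, were all expressed in every line. Their summed level was 16111.5 to 16592.8 TPM in WT, 8132.4 to 8205.9 TPM in dKO and 12158.3 to 12511.1 TPM in dCD. Dppa5a alone carried much of these differences, with means of 6432.7, 1199.4 and 4908.6 TPM.

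Smooth muscle contracts when myosin, switched on through phosphorylation of its regulatory light chain, pulls on filaments of alpha and gamma smooth muscle actin, while tropomyosin, caldesmon and calponin sit along the actin filament and modulate that pull. Many of these genes are controlled by serum response factor (SRF), which binds the CArG box, and by its cofactors: myocardin in muscle cells and the myocardin-related factors Mkl1 and Mkl2, which are released into the nucleus when free actin monomer runs low. Embryonic stem cells normally build their cytoskeleton from the non-muscle actins Actb and Actg1.

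Promoter windows of 300 bases, from 250 bases before to 50 after the start, were present in the RefSeq table (build GRCm38.p6) for 8 of the 10 genes, all except Tagln and Actg2. A CArG box, searched on both strands, was found in 3 of these 8 genes (Acta1, Actc1 and Myl9), and was held by 1.63% of all 32851 windows and 1.81% of 27025 genes. A looser form, in which 1 of the 6 central A or T bases may be G or C, was found in 4 of the 8 (Acta2 in addition to those 3) and in 8.5% of windows and 9.69% of genes. The 200 bases before the start of these 4 genes are shown, since they are the ones with either form of the box; either form was held by 9.98% of windows. They lie at chr19:34255374-34255573, chr8:123894776-123894975 and chr2:114052876-114053075 on the minus strand and at chr2:156775264-156775463 on the plus strand, and are written 5′ to 3′ in the direction of transcription with both forms of the CArG box in capitals.
Acta2: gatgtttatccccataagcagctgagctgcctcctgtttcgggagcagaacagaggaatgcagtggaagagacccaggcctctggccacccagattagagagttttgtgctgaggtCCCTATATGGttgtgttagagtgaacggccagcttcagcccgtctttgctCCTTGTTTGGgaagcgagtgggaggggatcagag
Acta1: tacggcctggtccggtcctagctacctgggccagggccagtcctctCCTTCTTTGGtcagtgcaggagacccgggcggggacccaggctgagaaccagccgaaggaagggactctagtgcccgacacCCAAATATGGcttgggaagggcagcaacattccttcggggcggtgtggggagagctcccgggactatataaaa
Actc1: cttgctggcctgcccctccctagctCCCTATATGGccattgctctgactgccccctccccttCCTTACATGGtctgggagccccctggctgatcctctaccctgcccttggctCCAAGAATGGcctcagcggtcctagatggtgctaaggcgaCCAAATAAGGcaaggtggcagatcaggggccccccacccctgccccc
Myl9: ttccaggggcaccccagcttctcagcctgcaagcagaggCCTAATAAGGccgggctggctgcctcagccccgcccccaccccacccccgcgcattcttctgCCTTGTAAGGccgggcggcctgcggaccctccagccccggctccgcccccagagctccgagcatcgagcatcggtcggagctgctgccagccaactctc

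Counted from the start, the capitals in Acta2 begin at positions -84 and -34, and both are of the looser form. In Acta1 the CArG box begins at -73 and a looser box at -154, with another at -205, outside the stretch shown. In Actc1 the CArG box begins at -47, and 3 looser boxes precede it. In Myl9 the CArG box begins at -161 and a looser one at -99. The MCAT element bound by TEAD factors, CATTCC on either strand, was found in 4 of the 8 genes (Acta2, Acta1, Tpm1 and Cald1) and in 14.7% of all windows, and it overlapped no CArG box in these genes. A match is only a run of letters: it is not evidence of a bound site, and these windows hold no enhancer.

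Acta2 encodes alpha smooth muscle actin, the main actin of vascular smooth muscle and myofibroblasts. It measured 0.43, 0.50 and 0.53 TPM in the WT libraries, 101.24, 105.54 and 93.58 TPM in dKO and 524.98, 542.06 and 493.0 TPM in dCD. The 3 lines were far apart, and no library of one line came near those of another. The ratio of mean levels was 205.3 for dKO over WT, 1066.3 for dCD over WT and 5.19 for dCD over dKO. On the log2(TPM + 1) scale used for all fold changes here, which understates the change of low genes, these were differences of 6.09, 8.45 and 2.37 (SE 0.0505 each). The WT value rested on 23 reads over 3 libraries, against 4702 in dKO and 34398 in dCD. In bulk RNA, a few cells with much of a transcript and many cells with little of it cannot be told apart, and this holds for every gene below.

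Acta1, skeletal muscle alpha-actin, was at 0.09, 0.34 and 0 TPM in WT, where the 3 libraries held 1, 6 and 0 reads. It measured 8.74, 9.6 and 7.96 TPM in dKO and 72.15, 71.24 and 70.20 TPM in dCD. The dCD libraries again lay apart from the dKO libraries, and from read counts the level in dCD was 8.07 times that in dKO (95% interval 7.21 to 9.05). Against the few WT reads the ratios were 47.7 for dKO (95% interval 22.9 to 119.6) and 385.0 for dCD (186.7 to 958.3). These intervals cover counting error only, and reads without molecular identifiers are not independent molecules.

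Actg2, the gamma-actin of visceral smooth muscle, stayed low. It measured 0.17, 0 and 0 TPM in WT, 0.91, 1.23 and 0.30 TPM in dKO and 3.08, 3.12 and 3.48 TPM in dCD, with 2, 34 and 191 reads per line. The lines did not overlap, although dKO replicate 3 lay close to the highest WT library. The dCD level was 3.94 times the dKO level (95% counting interval 2.73 to 5.86).

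Actc1, cardiac alpha-actin, differed from the other 9 genes in its order. It had no read in any WT library, and measured 14.05, 12.62 and 9.11 TPM in dKO and 12.59, 15.50 and 11.87 TPM in dCD. Against a floor of 3 reads over the WT group, the ratio was 169.7 for dKO and 185.9 for dCD. The floor allows for counting error in WT only, and not for the spread between libraries. The libraries of the 2 mutant lines overlapped: the ratio of dCD to dKO was 1.1 (95% counting interval 0.978 to 1.23), and the log2 difference of 0.16 (SE 0.14) became -0.01 when dKO replicate 3 was left out. The actin genes share nearly identical coding sequence, and how the authors' counting treated reads with several matches is not given in the sources used here, so a small spill of reads between actins would go unseen, most of all for the low Actg2 and Actc1.

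Tagln encodes transgelin (SM22-alpha), an actin cross-linking protein that is an early marker of smooth muscle. It measured 3.0, 2.15 and 1.98 TPM in WT, 73.78, 74.34 and 63.91 TPM in dKO and 464.14, 487.92 and 450.84 TPM in dCD. The lines were fully separate, with ratios of 29.8, 196.9 and 6.62 for dKO over WT, dCD over WT and dCD over dKO. Its log2 difference between dCD and dKO, 2.71 (SE 0.0992), was second among the 10 genes after that of Acta1, 2.89 (SE 0.101). In the reference gene table Tagln overlaps Pcsk7, and without a stated strand setting their reads cannot be told apart; Pcsk7 itself was at 12.5, 18.8 and 15.9 TPM in the 3 lines.

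Cnn1, calponin 1, binds actin and slows its cycling with myosin. It measured 1.14, 1.82 and 1.86 TPM in WT, 5.89, 5.81 and 5.79 TPM in dKO and 18.91, 18.61 and 17.97 TPM in dCD, 3 tight and separate groups. Cald1 encodes caldesmon, an actin and tropomyosin binding protein with both smooth muscle and widespread non-muscle forms that a gene-level table does not separate. It measured 24.21, 24.14 and 26.28 TPM in WT, 30.59, 28.99 and 30.34 TPM in dKO and 87.55, 91.38 and 84.38 TPM in dCD. Its dKO libraries stood just above the WT libraries, by a ratio of 1.2, while its dCD libraries were 2.93 times the dKO mean. Cald1 thus had the smallest difference between dKO and WT of the 10 genes, 0.26 on the log2 scale (SE 0.0427).

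Myl9, the regulatory light chain of smooth muscle myosin, measured 1.11, 1.19 and 1.22 TPM in WT, 12.00, 11.66 and 8.82 TPM in dKO and 22.52, 19.28 and 21.00 TPM in dCD. The groups did not overlap, and the larger step lay between WT and dKO (ratio 9.26) rather than between dKO and dCD (ratio 1.93). The tropomyosin genes also make muscle and non-muscle forms from the same locus. Tpm1 measured 34.18, 35.01 and 34.04 TPM in WT, 64.85, 66.00 and 65.89 TPM in dKO and 201.93, 207.92 and 195.88 TPM in dCD. Tpm2 measured 17.05, 16.84 and 17.12 TPM in WT, 45.20, 42.58 and 41.61 TPM in dKO and 78.31, 77.49 and 79.13 TPM in dCD. Both were well expressed before any mutation, and their ratios of dCD to WT were 5.87 and 4.61, far below those of Acta2 or Tagln. Tpm2 overlaps Car9 in the reference gene table, and Car9 was at 0.93, 0.775 and 1.26 TPM in WT, dKO and dCD.

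**Figure D1:**
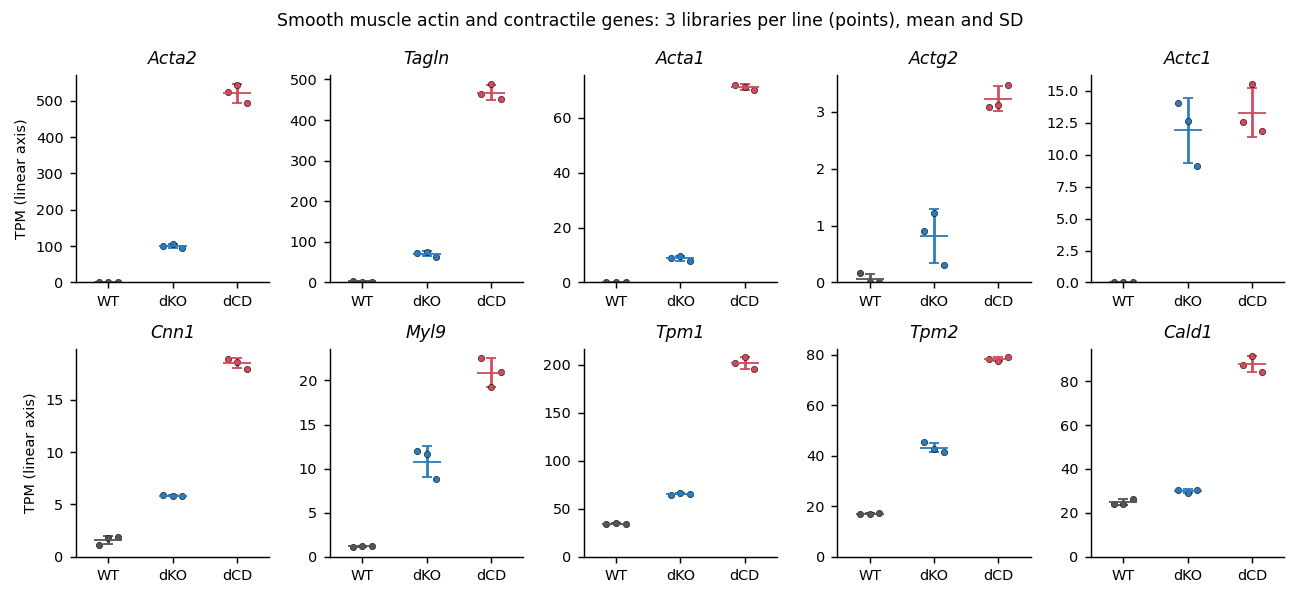
Level of each of the 10 contractile genes in TPM on a linear axis starting at 0, with 1 point per library, 3 libraries per line, and the line mean and SD as bars. In 9 panels the lines step up from WT to dKO to dCD, as in Acta2 with means of 0.488, 100.1 and 520.0 TPM; in the Actc1 panel the dKO and dCD points overlap.

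The order of the genes by level changed between lines. In WT the 3 genes with broad non-muscle use led, Tpm1 at 34.4, Cald1 at 24.9 and Tpm2 at 17.0 TPM, and the other 7 were at 2.38 TPM or less. In dKO and dCD, Acta2 came first and Tagln second. Among all 48321 rows, Acta2 ranked 17438 in WT, 2125 in dKO and 254 in dCD by mean TPM, and Tagln ranked 12603, 2979 and 305. Neighbours in this order whose libraries overlapped were Cnn1 and Myl9, Acta1 and Actg2, and Actg2 and Actc1 in WT. In dKO they were Tagln and Tpm1, Actc1 and Myl9, and Myl9 and Acta1, and in dCD no pair of neighbours overlapped. The summed level of the 10 genes was 81.4 to 83.0 TPM in WT, 327.3 to 358.4 TPM in dKO and 1427.7 to 1534.5 TPM in dCD.

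All 10 genes passed the filter of at least 1 TPM in at least 3 of the 9 libraries, but Acta2, Acta1, Actg2 and Actc1 did so through mutant libraries alone, so that those 4 had to differ. The 10 genes had a median log2 fold change of 1.92 (0.26 to 6.09) for dKO against WT, 3.13 (1.78 to 8.45) for dCD against WT and 1.52 (0.16 to 2.89) for dCD against dKO. Over all 16179 tested genes the medians were 0.096, -0.009 and -0.095. All dKO libraries lay above all WT libraries for 10 of 10 genes, where 45.0% of all tested genes did. All dCD libraries lay above all WT libraries for 10 of 10, where 31.2% of tested genes did, and all dCD libraries above all dKO libraries for 9 of 10, where 28.4% did. Because these contrasts chose the genes, the counts are set beside the background and nothing is read from them. The contrasts of dKO and dCD with WT share the WT libraries.

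Within each mutant line, most of the 10 genes were lowest in the same library. In dKO, replicate 3 was the lowest library for 8 of the 10 genes and the highest for none. In dCD, replicate 3 was the lowest for 7 of 10, while in WT no library was lowest for more than 4. The spread between replicates was small next to the differences between lines: the SD of the Acta2 level was 6.06 TPM in dKO and 24.9 TPM in dCD.

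Set within their gene families, the muscle-type genes took a larger share of the summed TPM in dKO than in WT, and a larger one again in dCD. The 6 actin genes summed to 3825.5 ± 63.6 TPM in WT, 3950.8 ± 99.7 TPM in dKO and 5405.2 ± 201.8 TPM in dCD (SD, n = 3). Acta2, Acta1, Actg2 and Actc1 together made up 0.0179% of that sum in WT, 3.08% in dKO and 11.3% in dCD, of which Acta2 alone gave 9.63% in dCD. Actb, the main cytoplasmic actin, measured 3128.9, 2542.6 and 3377.8 TPM, and Actg1 measured 695.9, 1286.6 and 1419.7 TPM. Even in dCD, then, the non-muscle actins supplied most actin transcripts.

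Tagln made up 0.933% of the sum of Tagln, Tagln2 and Tagln3 in WT, 30.0% in dKO and 57.7% in dCD, where it passed the non-muscle Tagln2 (467.6 against 333.9 TPM). The transgelin total was 254.7, 235.2 and 811.1 TPM and the calponin total 598.9, 552.6 and 948.6 TPM in WT, dKO and dCD. Tpm1 and Tpm2 made up 16.3%, 25.8% and 42.1% of the 4 tropomyosin genes. Myl9 made up 0.331%, 2.23% and 4.08% of the 3 regulatory light chains, of which Myl12a and Myl12b were the bulk in every line. Cnn1 made up 0.267%, 1.05% and 1.95% of the 3 calponins, of which the broadly expressed Cnn3 was the bulk at 542.5, 436.6 and 742.5 TPM. These shares rest on the genes chosen for their rise and carry no test.

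**Figure D2:**
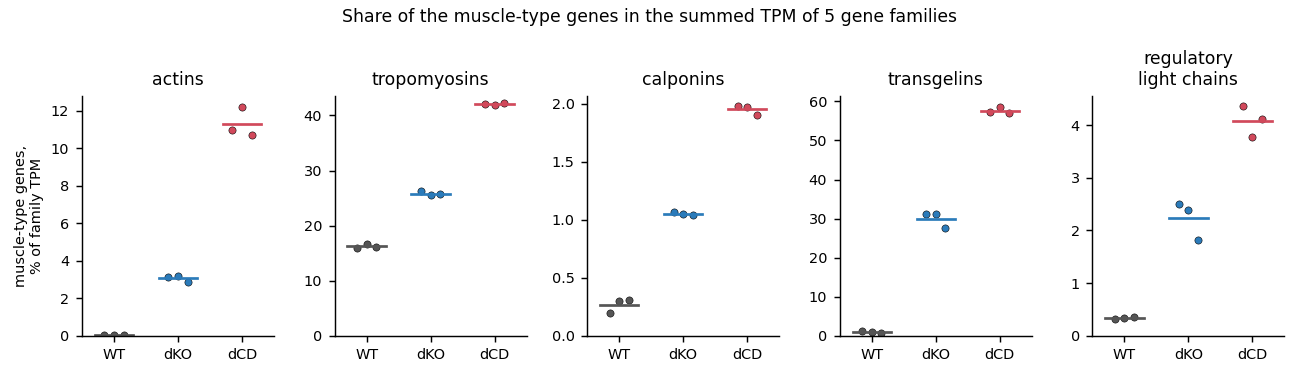
Share of the muscle-type genes in the summed TPM of their family, in percent, with 1 point per library and a bar at the line mean; each panel has its own linear axis from 0. The transgelin panel runs from 0.933% in WT to 57.7% in dCD and the actin panel from 0.0179% to 11.3%.

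Other genes typical of smooth muscle, which did not enter the choice of the 10, were examined next, with limma on all tested genes. Of 26 such genes 21 were tested. In dKO against WT, 8 were higher and 10 lower, against a background of 43.4% higher and 28.4% lower among all tested genes. In dCD against WT, 15 were higher and 4 lower (background 28.9% and 29.5%), and in dCD against dKO 14 were higher and 1 lower (background 27% and 42.3%). Their median log2 fold changes were -0.12, 0.41 and 0.74 in the 3 contrasts. A listed gene under 1 TPM in all WT libraries passed the filter through mutant libraries alone and had to differ, so such genes are named below without a p-value. Here these were Hspb7, Pdlim3, Cav1 and Tgfb1i1, and without them the counts were 5 higher and 9 lower, 11 and 4, and 10 and 1. The background split depends on scaling: of all called genes 60.4% were higher in dKO than in WT, and 49.9% with median-ratio scaling, and for dCD against dKO the shares were 39.0% and 51.1%.

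Tgfb1i1 (Hic-5), a focal adhesion adaptor, measured 0.107 ± 0.0331, 2.57 ± 0.0353 and 6.72 ± 0.353 TPM in WT, dKO and dCD. Pdlim7, a PDZ and LIM domain protein of actin fibres, rose in both mutants, with 21.8, 48.8 and 60.3 TPM (limma adjusted p = 1.31e-10 for dCD against WT). Lmod1, leiomodin 1, which nucleates actin filaments in smooth muscle, was at 1.03 ± 0.0895 TPM in WT, 0.868 ± 0.158 in dKO and 6.24 ± 0.419 in dCD. It did not pass the test in dKO (limma adjusted p = 0.256) and rose in dCD (log2 fold change 1.83, limma adjusted p = 8.36e-08). Csrp1, a LIM protein of smooth muscle, fell in dKO and rose in dCD, with 101.5, 61.1 and 194.0 TPM in WT, dKO and dCD. Smtnl2, a smoothelin-like protein, fell in both, from 132.8 to 36.4 and 93.5 TPM, and so did the LIM protein gene Fhl1, from 27.6 to 21.5 and 18.9 TPM.

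The markers of differentiated smooth muscle differed in level. Smoothelin, Smtn, measured 35.5, 40.5 and 38.7 TPM in WT, dKO and dCD. It rose slightly in both mutants (log2 fold changes 0.19 and 0.12, limma adjusted p = 0.00102 and 0.0162). Over all tested genes the medians were 0.096 and -0.009, and the median for dKO was 0.005 with median-ratio scaling. The filament protein desmin, Des, measured 14.4, 6.7 and 32.0 TPM, falling in dKO and rising in dCD. Others were too low to be tested. Smooth muscle myosin heavy chain, Myh11, measured 0.119, 0.297 and 0.923 TPM, and the heart and smooth muscle SRF cofactor Myocd 0.0163, 0.135 and 0.79 TPM, with 2, 23 and 193 reads. Myosin light chain kinase, Mylk, measured 0.265, 0.223 and 0.572 TPM. Synpo2, Pln and Kcnmb1 were also under 1 TPM in all 9 libraries. The name smooth muscle is thus used for the genes' known products, and the libraries are not described as holding smooth muscle cells.

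Broad non-muscle relatives of the 10 genes were mixed in dKO and mostly higher in dCD. Of 15 tested, 5 were higher and 6 lower in dKO against WT (background 43.4% and 28.4%). In dCD against WT 11 were higher and 2 lower (background 28.9% and 29.5%). Against dKO, 13 were higher in dCD and 1 lower (background 27% and 42.3%). Medians were -0.05, 0.45 and 0.41. Calponin 2, Cnn2, rose from 54.8 ± 2.53 TPM in WT to 110.2 ± 1.54 in dKO and 187.7 ± 3.68 in dCD (limma adjusted p = 1.5e-09 and 1.14e-10 against WT), and Actg1 rose in both mutants (log2 fold changes 0.89 and 1.03). The non-muscle myosin heavy chain Myh10 did not pass the test in dKO and rose in dCD, with 69.6, 72.5 and 136.6 TPM. A further heavy chain, Myh14, fell in both, with 38.6, 12.1 and 19.6 TPM, as did Tagln3, with 14.4, 5.48 and 9.57 TPM.

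Transcripts of the tested SRF partners moved by less than 2-fold against WT on the log2(TPM + 1) scale. Srf measured 66.4 ± 1.83 TPM in WT, 96.3 ± 1.47 in dKO and 85.4 ± 4.16 in dCD, log2 fold changes of 0.53 (SE 0.0361, limma adjusted p = 3.26e-07) and 0.36 (limma adjusted p = 1.31e-05) against WT. Mkl1 and Mkl2 rose in dKO (0.32 and 0.5) and did not pass the test in dCD (0.04 for both). Between the mutants, Srf, Mkl1 and Mkl2 were lower in dCD than in dKO, with log2 differences of -0.17, -0.28 and -0.46; the call for Srf was lost with median-ratio scaling, where the value was -0.07. Myocd, untested, was 5.87 times as high in dCD as in dKO. Ternary complex factors compete with myocardin-related factors for SRF, and Klf4 is a repressor of smooth muscle genes. The ternary complex factors Elk3 and Elk4, and Klf4, rose in dKO and fell in dCD against WT. In dCD the call for Elk4 (log2 fold change -0.2) was lost without WT replicate 1, WT replicate 3 or dCD replicate 2. Another ternary complex factor, Elk1, measured 21.3, 22.3 and 19.8 TPM in WT, dKO and dCD. It did not pass the test against WT in either mutant (limma adjusted p = 0.246 and 0.0764). Klf4 measured 475.3, 808.5 and 383.8 TPM in WT, dKO and dCD.

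Yap1 and its relative Wwtr1, coactivators of TEAD factors, rose in both mutants (0.51 and 0.22 in dKO, 0.63 and 0.33 in dCD) and were higher in dCD than in dKO (0.11 for both). Of the TEAD factors, Tead1 rose to 88.2 TPM in dKO and 85.9 TPM in dCD from 66.7 TPM, Tead3 rose in both, Tead2 fell in dKO and rose in dCD, and Tead4 fell in dCD. Foxo4, which restrains myocardin, was at 72.6, 72.8 and 94.2 TPM and rose in dCD, and Gata6 rose in dCD from 2.19 to 5.01 TPM. Of the 15 tested genes of this group, 10 were higher and 1 lower in dKO against WT (background 43.4% and 28.4%). The counts were 8 and 4 in dCD against WT (28.9% and 29.5%), and 5 and 8 in dCD against dKO (27% and 42.3%). Medians were 0.4, 0.12 and -0.17.

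Known SRF targets outside the contractile set were counted in the same way. Of 20 tested, 14 were higher and 5 lower in dKO (background 43.4% and 28.4%), 18 and 2 in dCD against WT (28.9% and 29.5%), and 14 and 3 in dCD against dKO (27% and 42.3%), with medians of 0.36, 0.88 and 0.58. Leaving out Fhl2, Filip1l, Thbs1 and Ankrd1, which were under 1 TPM in all WT libraries, the counts were 10 and 5, 14 and 2, and 10 and 3. Thbs1, the matrix glycoprotein thrombospondin 1, measured 0.21, 0.28 and 0.26 TPM in WT, 13.65, 13.39 and 14.00 TPM in dKO and 58.00, 55.36 and 57.10 TPM in dCD. No library of one line overlapped those of another, with log2 fold changes of 3.55 in dKO and 5.53 in dCD. Zyxin, Zyx, an adhesion protein, rose from 6.14 ± 0.627 to 21.3 ± 0.447 and 37.4 ± 1.02 TPM. Cyr61 and Ctgf, matricellular genes that also answer to Yap1, rose in dCD from 24.2 to 175.5 and from 19.6 to 73.2 TPM. In dKO they measured 27.9 and 22.0 TPM, and their calls there were lost with median-ratio scaling. Lima1 and Vil1, actin-bundling proteins, fell in both mutants.

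**Figure D3:**
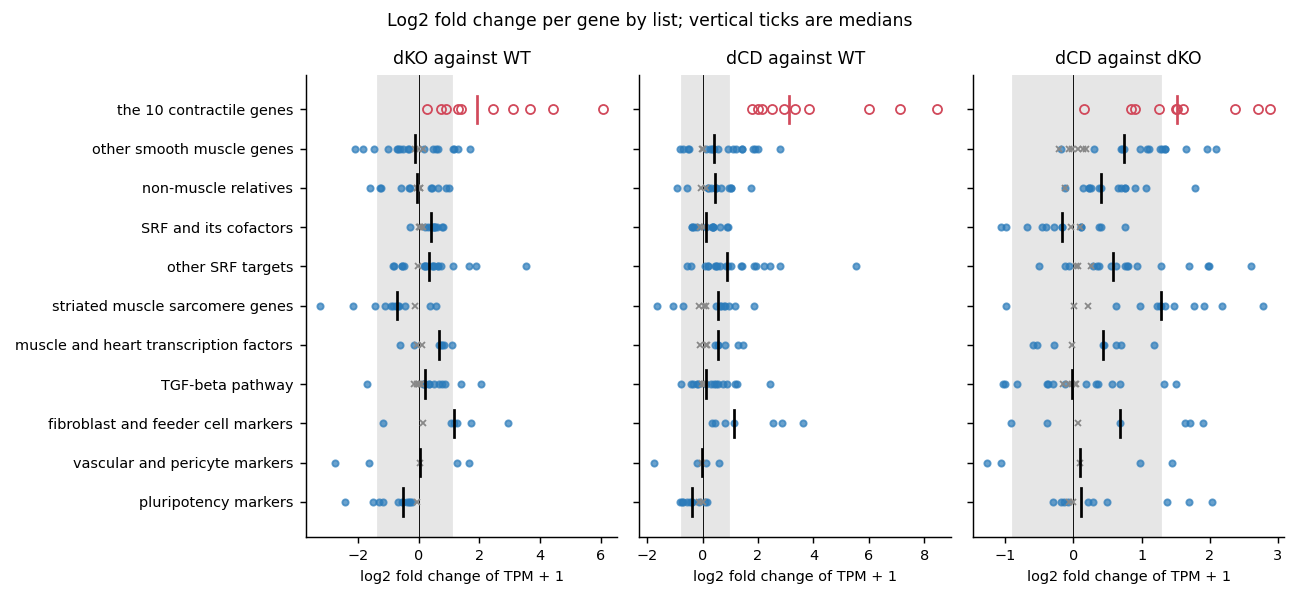
Log2 fold change of TPM + 1 for each tested gene, by list (rows) and contrast (panels, each with its own axis); open circles are the 10 contractile genes, filled points passed the limma test, grey crosses did not, vertical ticks are list medians and the grey band spans the middle 90% of all tested genes. The 10 genes have medians of 1.92, 3.13 and 1.52, and the other smooth muscle genes medians of -0.12, 0.41 and 0.74.

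Since Acta1 and Actc1 belong to striated muscle, sarcomere genes were examined too. Of 25, 10 were under 1 TPM in all 9 libraries, among them Tnnt2, Neb and Ckm, and 14 were tested. In dKO against WT, 2 were higher and 11 lower (median -0.73, background 43.4% and 28.4%). In dCD against WT the counts were 8 and 3 (median 0.56, background 28.9% and 29.5%). In dCD against dKO they were 11 and 1 (median 1.28, background 27% and 42.3%). Without Myl2, Mybpc1 and Casq1, under 1 TPM in all WT libraries, these were 2 and 9, 5 and 3, and 8 and 1. Actn2, the alpha-actinin of the Z-disc, was at 0.82, 1.32 and 5.44 TPM and rose in dCD (log2 fold change 1.84, limma adjusted p = 6.22e-07). Tnnt1, slow troponin T, fell in dKO and rose in dCD, with 6.99, 3.48 and 14.3 TPM, and myoglobin, Mb, fell in both, with 3.15, 1.62 and 0.318 TPM. The myogenic factors Myod1, Myf5, Myf6 and Myog were under 1 TPM in all libraries. Of 9 tested muscle and heart transcription factors, 5 were higher and 2 lower in dKO against WT (background 43.4% and 28.4%). In dCD against WT 6 were higher and none lower (background 28.9% and 29.5%). Without Hand1, Hand2 and Pax3, under 1 TPM in all WT libraries, these were 2 and 2, and 3 and none. Hand1 measured 0.635, 1.75 and 3.48 TPM.

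The TGF-beta pathway, an inducer of Acta2 in many cells, was counted in the same way. Of 19 tested genes, 12 were higher and 1 lower in dKO against WT (background 43.4% and 28.4%). The counts were 10 and 5 in dCD against WT (28.9% and 29.5%), and 7 and 7 in dCD against dKO (27% and 42.3%). Without Tgfb2 and Tgfb3, under 1 TPM in all WT libraries, these were 10 and 1, 8 and 5, and 6 and 7. The ligand Tgfb2 measured 0.479 ± 0.0313 TPM in WT, 5.21 ± 0.0975 in dKO and 7.0 ± 0.352 in dCD, and its receptor Tgfbr2 rose from 1.39 to 5.26 and 4.64 TPM. The co-receptor endoglin, Eng, fell in dCD, with 75.4, 79.1 and 44.0 TPM.

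Markers of fibroblasts and feeder cells, which can express Acta2 and Tagln, moved with the 10 genes in part. Their summed level was 26.2 to 28.4 TPM in WT, 67.3 to 69.6 TPM in dKO and 71.5 to 73.2 TPM in dCD. Of 15 markers, 7 were tested. In dKO against WT 5 were higher and 1 lower (background 43.4% and 28.4%). In dCD against WT 7 were higher (background 28.9%), and in dCD against dKO 4 were higher and 2 lower (background 27% and 42.3%). Of the 7, Col1a1, Col1a2, Col3a1 and Col5a2 passed the filter through mutant libraries alone, and of the other 3 the counts were 1 and 1, 3 and none, and 2 and 1. Col1a1 measured 0.47, 10.2 and 7.57 TPM, Col1a2 measured 0.0189, 1.28 and 6.45 TPM, and Twist1, which was expressed in WT, measured 17.4, 43.3 and 22.4 TPM. The other 8, Col6a1, Pdgfra, Dcn, Lum, Postn, S100a4, Fap and Twist2, were under 1 TPM in all 9 libraries, and Fap, Lum and S100a4 were at or near 0. Pdgfra measured 0.169, 0.607 and 0.875 TPM in WT, dKO and dCD, and Col6a1 0.27, 0.344 and 0.642 TPM. Dcn measured 0.0968, 0.141 and 0.487 TPM, Postn 0.00311, 0.118 and 0.135 TPM, and Twist2 0, 0.0773 and 0.0766 TPM. None of the 8 was tested. Twist1 carried much of the sum: without it the markers summed to 8.98 to 10.7 TPM in WT, 23.9 to 25.7 TPM in dKO and 48.9 to 51.4 TPM in dCD. Thy1 was the marker called lower in dKO than in WT, unlike Acta2. It measured 2.18, 0.412 and 3.39 TPM in WT, dKO and dCD, so its dCD level was 1.55 times that of WT. The ratio of dCD to dKO was 8.23 for Thy1, 5.03 for Col1a2, 4.39 for Col5a2 and 1.69 for Pdgfrb. It was 1.1 for Col3a1, 0.74 for Col1a1 and 0.518 for Twist1, beside 5.19 for Acta2. The part of such cells in the levels of the 10 genes was not tested.

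Of the genes beside the 10, all tested ones but Fas stayed within 2-fold of WT on the log2(TPM + 1) scale. The nearest protein-coding gene on each side in the reference table gave 20 neighbours, of which 17 were tested. In dKO against WT, 8 were higher and 5 lower (median 0.15, range -0.69 to 1.19), close to the background of 43.4% and 28.4%. In dCD against WT 7 and 3 were (median 0.11, range -0.44 to 1.6; background 28.9% and 29.5%), and in dCD against dKO 5 and 8 (background 27% and 42.3%). At the Acta2 locus, the death receptor gene Fas measured 0.0917, 1.51 and 2.32 TPM, log2 fold changes of 1.19 in dKO and 1.6 in dCD. It passed the filter through mutant libraries alone, and without it the counts were 7 and 5, 6 and 3, and 4 and 8. Stambpl1, on the other side of Acta2, measured 1.06, 1.37 and 1.22 TPM and passed the test in no contrast. Sidt2, beside Tagln, rose from 31.9 to 57.2 and 52.3 TPM. Tln1 and Tln2, the talin genes beside Tpm2 and Tpm1, fell in dKO (log2 fold changes -0.55 and -0.69). In dCD against WT, Tln1 rose (0.22) and Tln2 fell (-0.44). Nup133, beside Acta1, was at 113.3, 115.2 and 107.1 TPM.

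**Figure D4:**
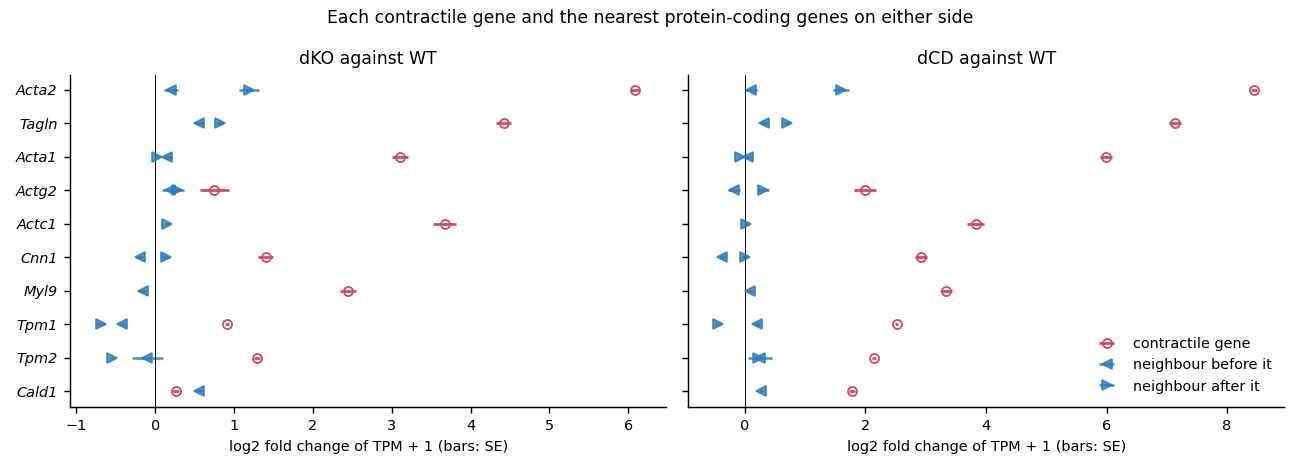
Log2 fold change of TPM + 1 against WT (horizontal axis) for each contractile gene and its tested protein-coding neighbours, with SE bars, for dKO on the left and dCD on the right. All neighbours lie between -0.69 and 1.6, with Fas beside Acta2 the farthest to the right in both panels.

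Over the 9 libraries, the other 9 contractile genes had a Pearson r with Acta2 on the log2(TPM + 1) scale of 0.803 (Cald1) to 0.997 (Myl9), where the 9 libraries are 3 lines of 3 replicates and not independent points. Outside the set, 156 tested genes spanned at least 3 log2 units between line means. From these, provisional symbols such as Gm numbers, Rik symbols and accessions were skipped. The 8 most like Acta2 among the rest were Csf1 (r = 0.9996), Tnc (0.9992), Thbs1 (0.9961), Anxa1 (0.9904), Usp17le (0.9793), Zfp36l3 (0.9726), Anxa3 (0.9618) and Col5a2 (0.9612). Csf1, the macrophage growth factor, measured 0.0481 ± 0.0358 TPM in WT, 5.04 ± 0.174 in dKO and 10.8 ± 0.206 in dCD. Tnc, the matrix protein tenascin C, measured 0.0335 ± 0.0205, 7.39 ± 0.405 and 20.8 ± 0.611 TPM. Both were close to 0 in WT and had separate dKO and dCD libraries, as Acta2 did, with levels far below those of Acta2. They were picked for this likeness and passed the filter through mutant libraries alone, so nothing is read from it.

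Other genes with a CArG box in the promoter window were found in both directions. Of 488 genes with the box, 162 outside the contractile set were tested. In dKO against WT 49.4% were higher and 30.9% lower (background 43.4% and 28.4%). The shares were 40.7% and 28.4% in dCD against WT (background 28.9% and 29.5%). In dCD against dKO they were 36.4% and 45.7% (background 27% and 42.3%). Their median log2 fold changes were 0.116, 0.044 and -0.073, beside 0.096, -0.009 and -0.095 over all tested genes. Srf, Fhl1, Actg1, Cnn2, Vcl, Fhl2, Lima1 and Vil1 are among those that hold the box, and they include genes that rose and genes that fell.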

How the data were processed

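The deposited table holds TPM values, which the authors computed for 9 RNA-seq libraries, with a gene length for each row. Per the submitters' processing notes, HISAT2, featureCounts and DESeq2 were used with build mm9; for the versions, the annotation, the strand setting and multi-mapped reads, the sources used here give nothing. The series' ChIP-seq, ATAC-seq and other samples were not analysed here. TPM multiplied by length gave whole reads per gene for 100% of values (within 0.01), from which depth and counting intervals were taken.

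Rows with at least 1 TPM in at least 3 of 9 libraries (16179) were tested on log2(TPM + 1) with limma 3.58.1 in R 4.3.3 (lmFit, eBayes with trend), in 1 fit with 3 contrasts; tests were two-sided, with Benjamini-Hochberg adjustment over all tested genes and a threshold of 0.05. The script was tested on simulated data, and replicate libraries differed by more than sampling noise (chi-square per degree of freedom 1.53 to 3.81). Tables were made with pandas 2.3.3 in Python 3.11.15, plots with matplotlib 3.10.9. The contractile genes and the 10 gene lists were chosen with earlier results of these data known. From each list, up to 4 called genes with the smallest adjusted p for dCD against WT were named, up to 2 called the other way, and the tested SRF partners; other genes are named as neighbours, as genes under 1 TPM or by likeness to Acta2. Untested striated and vascular genes and genes with a CArG box are named besides. Chromosomes and neighbours came from RefSeq (GRCm38.p6) by symbol. Alternatives were another scaling, pseudocount and minimum, voom on recovered reads, 2 lines only, a 2-fold threshold, a replicate block and leaving out each library.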

Additional observations from a re-analysis of the deposited data

How the results depend on the processing

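The contractile genes kept their direction against WT under every alternative tried. Their median log2 fold change for dKO against WT moved from 1.92 to 2.44 with a minimum of 5 TPM or only the 2 lines in the fit (both leave Actg2 untested), to 2.82 with a pseudocount of 0.1 TPM and to 3.28 with voom on recovered reads. For dCD against WT it moved from 3.13 to 3.34, 4.32 and 4.94 under the minimum of 5 TPM, the pseudocount and voom. For dCD against dKO it moved from 1.52 to 1.61 with median-ratio scaling, 1.63 with the pseudocount and 1.74 with voom. Leaving out 1 library gave medians of 1.85 to 1.99, 3.05 to 3.17 and 1.5 to 1.54, and Actc1 between the mutants ranged from -0.01 to 0.28, below 0 without dKO replicate 3. A 2-fold threshold cut the genes called from 11617 to 2249, from 9453 to 1123 and from 11220 to 1774, and the other smooth muscle genes called higher from 8 to 4, 15 to 8 and 14 to 9; with a minimum of 5 TPM they were 4 in dKO and 9 in dCD against WT. Without 1 library these counts were 8 in every run, 10 to 15 and 11 to 14. With median-ratio scaling or voom, Foxo4 (-0.10) and Nup133 (-0.08) changed sign for dKO against WT, and Zfp42 (0.10) and Sox2 (0.03) for dCD against dKO; Nup133 there was 0.00 with median-ratio scaling and Tead1 0.07 with voom. The cause was not tested. Same-numbered libraries did not deviate together (r from -0.049 to 0.042). This cannot tell whether they were prepared together, and no label says so. With the replicate number as a block, 11533, 9273 and 11114 genes were called and the medians were unchanged. Depth limits Actg2 and the WT values of Acta1 and Actc1, which rest on 0 to 7 reads.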

Other observations

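Summed over 12 genes, pluripotency transcripts were lowest in dKO. Much of that difference came from Dppa5a, at 6432.7, 1199.4 and 4908.6 TPM in WT, dKO and dCD. Pou5f1, Sox2, Esrrb and Tdgf1 were lower in dCD than in dKO. Of the 12, 11 were lower and none higher in dKO against WT, 8 were lower and 2 higher in dCD against WT, and 4 were lower and 6 higher in dCD against dKO. Among all tested genes, 28.4%, 29.5% and 42.3% were lower and 43.4%, 28.9% and 27% higher in these 3 contrasts. Esrrb, an orphan nuclear receptor of the naive state, fell from 610.9 ± 7.15 TPM in WT to 428.2 ± 2.42 in dKO and 347.5 ± 5.89 in dCD (SD, n = 3; limma adjusted p = 3.63e-09 and 4.31e-10). Lin28a, an RNA-binding protein, fell to 74.9 ± 2.97 TPM in dKO and measured 243.8 ± 2.04 TPM in dCD, above the 217.1 ± 2.38 TPM of WT (limma adjusted p = 4.85e-04). Vascular markers gave no common direction: of 5 tested, 2 were higher and 2 lower in each of the 3 contrasts (1 and 2, 2 and 2, and 2 and 1 without Kdr, which was under 1 TPM in all WT libraries), and Cdh5, Rgs5, Cspg4, Kcnj8, Abcc9, Angpt1 and Emcn were under 1 TPM in all 9 libraries. Vwf, von Willebrand factor, fell from 12.6 to 1.02 TPM in dKO and 3.0 TPM in dCD, and the angiopoietin receptor Tek rose from 1.41 to 6.69 and 2.68 TPM.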
